A study of Mus musculus with 10 samples.

Results

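The small leucine-rich proteoglycans (SLRPs) Dcn, Lum, Bgn, Aspn, Ogn, Fmod and Prelp were examined in aortic smooth muscle cells of mouse embryos that had or lacked elastin. These 7 genes were taken by symbol from a table of 28165 genes, where each was found once. The cells came from intercrosses of Eln(+/-) mice that carried an Acta2-GFP reporter, in which the smooth muscle actin promoter marks the cells. The aorta of embryos at embryonic day 15.5 was digested with collagenase, and cells that were GFP+, CD31- and DAPI- were sorted and lysed for bulk mRNA sequencing. There were 5 Eln+/+ libraries and 5 Eln-/- libraries, untreated, and both genotypes carried the reporter. How many embryos went into a library and what kind of Eln allele was used are not stated. A p-value here reflects the variation among these 10 libraries alone, part of which may be technical. The gate selects by the reporter, and so keeps any cell with active Acta2 that lacks CD31.

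SLRPs are secreted proteins with a core of leucine-rich repeats that bind collagen fibrils and set their diameter and spacing. Many carry chondroitin, dermatan or keratan sulfate chains, and several bind TGF-beta and other growth factors. In the vessel wall decorin and biglycan are the best known, and loss of biglycan is linked to aneurysm and rupture of the aorta. The genes fall into structural classes by their cysteine pattern: Dcn, Bgn and Aspn in class I, Lum, Fmod and Prelp in class II, and Ogn in class III.

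The libraries held 26951733 to 63866416 estimated counts. Eln+/+ replicate 1 and Eln-/- replicates 4 and 5 stood apart, with 15089 to 15925 genes detected against 18157 to 22951 in the other 7 libraries, and with 5.52% to 5.99% of counts in a gene model annotated as ribosomal RNA against 0.225% to 2.96%. Fold changes of the 7 genes and median fold changes of lists are therefore given for all 10 libraries and for the 7 others. Eln was at 159, 1214, 175, 790 and 702 CPM (counts scaled to a common library size) in Eln+/+ replicates 1 to 5, and Eln-/- libraries held 0 to 0.493 CPM. Acta2 ranged from 473 to 1195 CPM in Eln+/+ libraries and from 601 to 1742 CPM in the mutants. The sort on its reporter selects for this transcript, so its presence in every library does not establish the cell type. Pecam1, which encodes CD31, was at 0 to 7.70 CPM.

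Most of the genes sit beside relatives. Lum follows Dcn on chromosome 10 after a gap of 47.0 kb, and Kera and Epyc come next on the same strand. On chromosome 13 the order is Ecm2, Aspn, Omd and Ogn, with 40.5 kb between Aspn and Ogn. On chromosome 1 Prelp lies 115.8 kb from Fmod and 2.3 kb from Optc, and Bgn lies alone on the X chromosome. In mm10 the spans are 97479609 to 97518143 for Dcn and 97565128 to 97572703 for Lum (chromosome 10, plus strand), and 73483602 to 73495933 for Bgn (chromosome X, plus strand). Aspn spans 49544443 to 49567565 and Ogn 49608046 to 49624501 (chromosome 13, plus strand). Fmod spans 134037254 to 134048277 on the plus strand and Prelp 133910304 to 133921414 on the minus strand of chromosome 1. Exons of Prelp overlap Gm15851 on the other strand and those of Aspn overlap a few bases of Cenpp, and as the strand setting is unknown such reads cannot be assigned with certainty.

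The 250 bases before the start site are shown for Bgn and Fmod, the pair whose log2 levels had the highest correlation over 7 libraries, and for the chromosome 13 neighbours Aspn and Ogn. They are from RefSeq (GRCm38.p6, the assembly also called mm10) on the plus strand, at chrX:73483351-73483600, chr1:134037004-134037253, chr13:49544193-49544442 and chr13:49607765-49608014. Capitals mark matches on either strand to a TATA box (TATAAA), a GC box (GGGCGG), an AP-1 site (TGANTCA), a SMAD box (CAGAC) or a CArG box, the element bound by serum response factor.
Bgn: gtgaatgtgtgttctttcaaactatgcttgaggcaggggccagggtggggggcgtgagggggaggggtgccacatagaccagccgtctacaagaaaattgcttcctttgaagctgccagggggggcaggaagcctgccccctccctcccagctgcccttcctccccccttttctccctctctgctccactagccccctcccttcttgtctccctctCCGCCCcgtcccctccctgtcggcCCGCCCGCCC
Fmod: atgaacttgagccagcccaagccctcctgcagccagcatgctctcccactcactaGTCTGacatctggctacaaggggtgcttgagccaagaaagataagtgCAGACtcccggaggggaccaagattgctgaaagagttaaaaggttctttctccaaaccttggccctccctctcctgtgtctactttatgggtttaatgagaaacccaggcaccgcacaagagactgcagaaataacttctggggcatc
Aspn: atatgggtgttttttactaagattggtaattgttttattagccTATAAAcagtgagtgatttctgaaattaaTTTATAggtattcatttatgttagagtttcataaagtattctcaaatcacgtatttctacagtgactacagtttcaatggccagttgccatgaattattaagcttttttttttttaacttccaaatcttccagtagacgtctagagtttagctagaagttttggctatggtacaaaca
Ogn: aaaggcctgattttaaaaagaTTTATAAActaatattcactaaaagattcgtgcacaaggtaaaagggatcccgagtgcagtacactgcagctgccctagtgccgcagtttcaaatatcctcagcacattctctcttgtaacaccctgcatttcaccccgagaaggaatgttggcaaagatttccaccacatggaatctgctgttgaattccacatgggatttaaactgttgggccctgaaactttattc

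The table held a promoter for 5 of the 7 genes, and Dcn and Lum had no entry. The Bgn window had 3 GC box matches, all within 34 bases of the start, and a GC content of 64.4%. The matches at 10 and 6 bases before the start overlap, and the match at 34 bases is separate. A GC box was present in 32.7% of the 32851 promoter windows of this length. Aspn and Ogn had no GC box and 2 TATA matches each, at 207 and 178 bases before the start of Aspn and overlapping at 229 and 227 bases before that of Ogn, against 12.4% of windows with a match. Their GC contents were 30.0% and 42.0%, below the median window (52.4%). Fmod had 2 SMAD box matches and Prelp 1, a motif found in 42.2% of windows. Neither AP-1 nor CArG matches were found in the 5 windows (6.75% and 1.47% of all windows). Bgn and Fmod shared none of the motifs marked in capitals. An E-box (CANNTG, not capitalized), found in 66.2% of windows, was present in both, 102 bases before the start of Bgn and 189 before that of Fmod, and also in Aspn and Ogn. A match is a description of letters and not evidence of binding.

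No SLRP passed the test between genotypes. With edgeR's quasi-likelihood test over 15718 genes, 0 of the 7 had an adjusted p under 0.05, where 0 genes in all (0%) were called and Eln itself was at an adjusted p of 0.152. DESeq2 called 6 genes on the same filtered table and limma-voom 2, with no SLRP among them. All 7 passed the filter on low counts. An unadjusted p under 0.05 was reached by 81 genes (0.515%) in either direction and by 23 (0.146%) with lower levels in Eln-/-, and 0 of the 7 SLRPs was among them. The genotypes overlapped for all 7, while 48 genes (0.305%) had no overlap in either direction. Log2 fold changes, Eln-/- over Eln+/+, were below 0 for 5 of the 7 and above 0 for 2 (48.5% and 51.5% of all genes tested), with a median of -0.98 against 0.02 over all genes. The class I gene Dcn, the chromosome 13 pair and Lum lay between -1.28 and -0.98, and Bgn and Fmod were above 0. In the 7 libraries 4 of the 7 were below 0 (47.2% of genes) with a median of -0.63. The biological coefficient of variation was 1.16, which limits what 5 libraries a side can show.

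**Figure D1:**
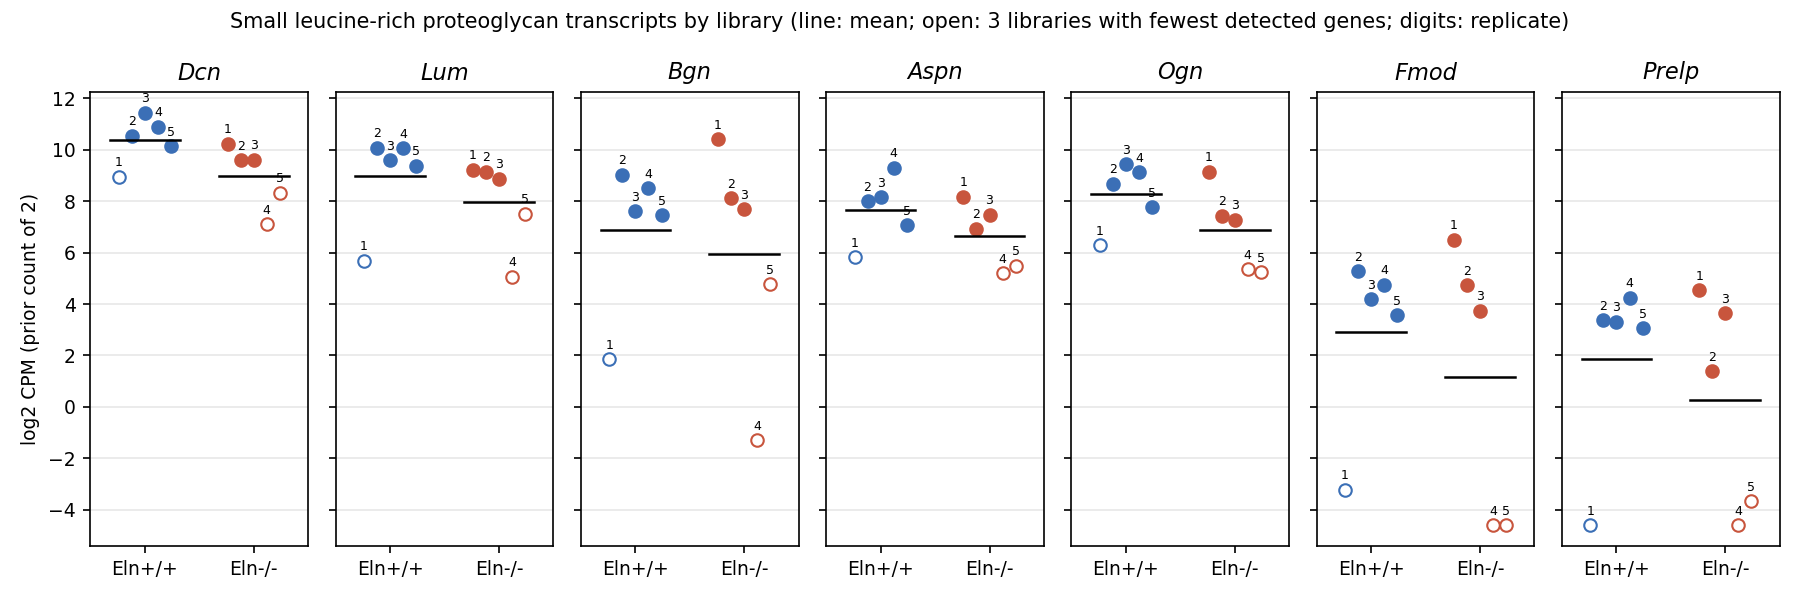
Log2 CPM of the 7 SLRP genes (y axis, prior count of 2) in each of 5 Eln+/+ and 5 Eln-/- libraries (points, labelled with the replicate number), with group means as lines and the 3 libraries with the fewest detected genes as open points. The open points lie lowest for each gene in both genotypes, where Fmod and Prelp had 0 to 1 counts and are placed by the prior count.

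Dcn encodes decorin, which binds type I collagen and carries a single chondroitin or dermatan sulfate chain. It was at 497, 1506, 2798, 1905 and 1126 CPM in Eln+/+ replicates 1 to 5 and at 1214, 775, 785, 138 and 324 CPM in Eln-/- replicates 1 to 5. The genotypes overlapped: Eln-/- replicate 1 exceeded Eln+/+ replicates 1 and 5. Means were 1566 ± 862 and 647 ± 424 CPM (SD, n = 5 each). The log2 fold change of Dcn was -1.28 (SE 0.67, edgeR adjusted p = 1.00, unadjusted p = 0.0822). In the 7 libraries it was -0.96 (SE 0.37, edgeR adjusted p = 1.00, unadjusted p = 0.0344), and 271 of the 17509 genes tested there (1.55%) had an unadjusted p under 0.05. No difference in Dcn was established, and fewer cells rich in Dcn and less Dcn RNA per cell cannot be told apart in bulk libraries. The libraries that stood apart held the lowest Dcn values of their genotypes, and their part was not tested.

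Lum encodes lumican, a keratan sulfate proteoglycan known for ordering collagen in the cornea. Its levels in Eln+/+ replicates 1 to 5 were 51.3, 1090, 775, 1078 and 665 CPM, and in Eln-/- replicates 1 to 5 they were 597, 570, 469, 33.3 and 183 CPM. Among the 7 libraries the 4 Eln+/+ values all lay above the 3 Eln-/- values, 665 against 597 CPM at the nearest, which was so in 260 of 15718 genes (1.65%) in the direction of lower in Eln-/-. For 0 of the 7 SLRPs all 3 Eln-/- libraries lay above the 4 Eln+/+ libraries (2.21% of genes). With all libraries the genotypes overlapped, as Eln+/+ replicate 1 was below 4 of the 5 Eln-/- libraries. The log2 fold change of Lum was -0.98 (SE 0.83, edgeR adjusted p = 1.00). In the 7 libraries it was -0.71 (SE 0.27, edgeR adjusted p = 1.00, unadjusted p = 0.0352).

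Aspn encodes asporin, a class I relative of decorin that binds collagen and TGF-beta, and Ogn encodes osteoglycin, also called mimecan. Aspn was at 56.4, 255, 285, 633 and 135 CPM in Eln+/+ replicates 1 to 5, and at 291, 122, 179, 36.7 and 45.2 CPM in Eln-/- replicates 1 to 5. Ogn was at 78.2, 411, 701, 560 and 219 CPM and at 570, 173, 156, 40.7 and 37.9 CPM, in the same order. For both genes Eln-/- replicate 1 lay inside the Eln+/+ range and Eln-/- replicates 4 and 5 lay below it. The log2 fold changes were -1.02 (SE 0.72) for Aspn and -1.01 (SE 0.81) for Ogn, with edgeR adjusted p-values of 1.00. In the 7 libraries they were -0.71 and -0.63. Without Eln-/- replicate 1 the log2 fold change of Ogn was -1.95 and that of Aspn -1.52, and without Eln+/+ replicate 4, where Aspn was highest, the log2 fold change of Aspn was -0.44.

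Bgn encodes biglycan, the closest relative of decorin, with a pair of glycosaminoglycan attachment sites. It was at 3.57, 521, 195, 366 and 176 CPM in Eln+/+ replicates 1 to 5 and at 1357, 276, 206, 0.363 and 27.5 CPM in Eln-/- replicates 1 to 5. One Eln-/- library was above every Eln+/+ library and another held only 5 counts, so the mean of 373 ± 562 CPM in Eln-/- had an SD larger than itself (Eln+/+ mean 252 ± 198 CPM, SD, n = 5 each). The log2 fold change of Bgn was 0.57 (SE 1.40, edgeR adjusted p = 1.00). It was 0.98 (SE 0.73) in the 7 libraries and -0.99 (SE 1.40) without Eln-/- replicate 1, so the sign turned when that 1 library was left out.

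Fmod encodes fibromodulin, which binds collagen and lysyl oxidase and is abundant in tendon, and Prelp encodes prolargin, which binds collagen and basement membrane heparan sulfate. Fmod was at 0.0661, 38.7, 18.1, 26.97 and 11.7 CPM in Eln+/+ replicates 1 to 5 and at 90.3, 26.7, 13.3, 0 and 0 CPM in Eln-/- replicates 1 to 5. Prelp was at 0, 10.2, 9.90, 18.9 and 8.31 CPM and at 23.1, 2.56, 12.5, 0 and 0.0377 CPM. Both genes were highest in Eln-/- replicate 1 and at 0 to 1 counts in the 3 libraries that stood apart. A count of 0 allows up to 3 counts, which equals 0.218 CPM for Eln-/- replicate 4, 0.113 CPM for Eln-/- replicate 5 and 0.198 CPM for Eln+/+ replicate 1, counting error only. The log2 fold change of Fmod was 0.45 (SE 1.69) and that of Prelp -0.31 (SE 1.63), both with an edgeR adjusted p of 1.00. Without Eln-/- replicate 1 the first was -0.94 and the second -1.32. In the 7 libraries they were 0.89 and 0.13.

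**Figure D2:**
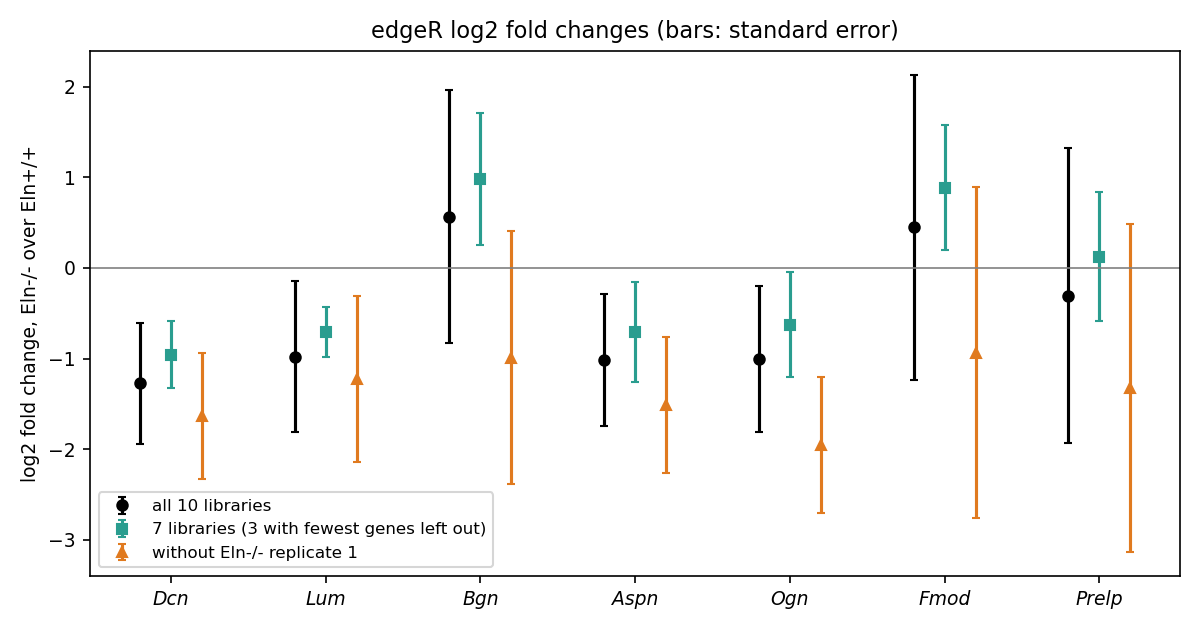
edgeR log2 fold changes of the 7 genes, Eln-/- over Eln+/+ (y axis), with standard errors as bars, in all 10 libraries (circles), in 7 libraries (squares) and without Eln-/- replicate 1 (triangles). Dcn, Lum, Aspn and Ogn were below 0 in all 3 sets, whereas Bgn and Fmod went from 0.57 and 0.45 to -0.99 and -0.94 without Eln-/- replicate 1.

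Levels were compared between genes per kilobase of exon. Over the union of all annotated exons Lum came first, at 225 ± 155 CPM per kilobase, and Dcn next, at 190 ± 138 (SD over 10 libraries). Ogn followed at 115 ± 95.6, Aspn at 86.5 ± 76.0 and Bgn at 51.3 ± 66.0 CPM per kilobase. Fmod was at 6.83 ± 8.21 and Prelp at 2.37 ± 2.25 CPM per kilobase. The ranges of all neighbours in this order overlapped over 10 libraries. Within libraries Lum was above Dcn in 7 of 10, Dcn above Ogn in 9, Ogn above Aspn in 7, Aspn above Bgn in 9, Bgn above Fmod in 10 and Fmod above Prelp in 8. The ranges of Bgn and Fmod did not overlap in the 7 libraries, which split the 5 more abundant genes from the 2 scarcer ones.

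The order at the top depends on the length used. The exon unions of Dcn (5838 bases) and Bgn (6099 bases) cover 2 and 3 transcripts that GENCODE annotates as retained intron, while their longest protein-coding transcripts have 1758 and 2419 bases. Per kilobase of the longest coding transcript, a length added after the data were seen, Dcn was at 630 ± 457 CPM, ranked first in all 10 libraries, and Lum at 225 ± 155. Bgn then ranked 3 over all 10 libraries, at 129 ± 166 CPM per kilobase. It ranked 5 in Eln+/+ and 2 in Eln-/-, and without Eln-/- replicate 1 its mean was 81.3 CPM per kilobase, rank 5, below Ogn at 102.9 and Aspn at 83.3. Fmod and Prelp ranked 6 and 7 with either length.

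Summed over the 7 genes, SLRP transcripts were at 687, 3831, 4782, 4588 and 2341 CPM in Eln+/+ replicates 1 to 5 and at 4143, 1946, 1821, 249 and 617 CPM in Eln-/- replicates 1 to 5. They made up 0.0121% to 0.0522% of counts in the 3 libraries that stood apart and 0.211% to 0.554% in the others. Among the 7 libraries Eln-/- replicate 1 lay among the Eln+/+ values and Eln-/- replicates 2 and 3 lay below all 4 of them. The mix also varied. Per kilobase of exon, the share of Bgn in the 7-gene total was 2.60% to 7.98% among the 4 Eln+/+ libraries, and Eln-/- replicates 1 to 3 had 21.1%, 8.39% and 6.68%, so the genotypes overlapped. The share of Dcn was 24.1% to 39.0% and 19.7% to 26.7% in these libraries.

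A ratio of counts within a library does not depend on its scaling. Eln+/+ replicates 2 to 5 held 2.89, 14.4, 5.21 and 6.40 Dcn counts per Bgn count. Eln-/- replicates 1 to 3 held 0.895, 2.81 and 3.82. The genotypes overlapped only through Eln+/+ replicate 2 and Eln-/- replicate 3. In the libraries that stood apart the ratio reached 139 (Eln+/+ replicate 1), 381 (Eln-/- replicate 4) and 11.8 (Eln-/- replicate 5). These libraries held only 54, 5 and 729 Bgn counts in that order, so the first values are imprecise. Counts of Dcn per Lum count were steadier, at 1.38 to 3.61 in the 4 Eln+/+ libraries and 1.36 to 2.03 in the 3 Eln-/- libraries.

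**Figure D3:**
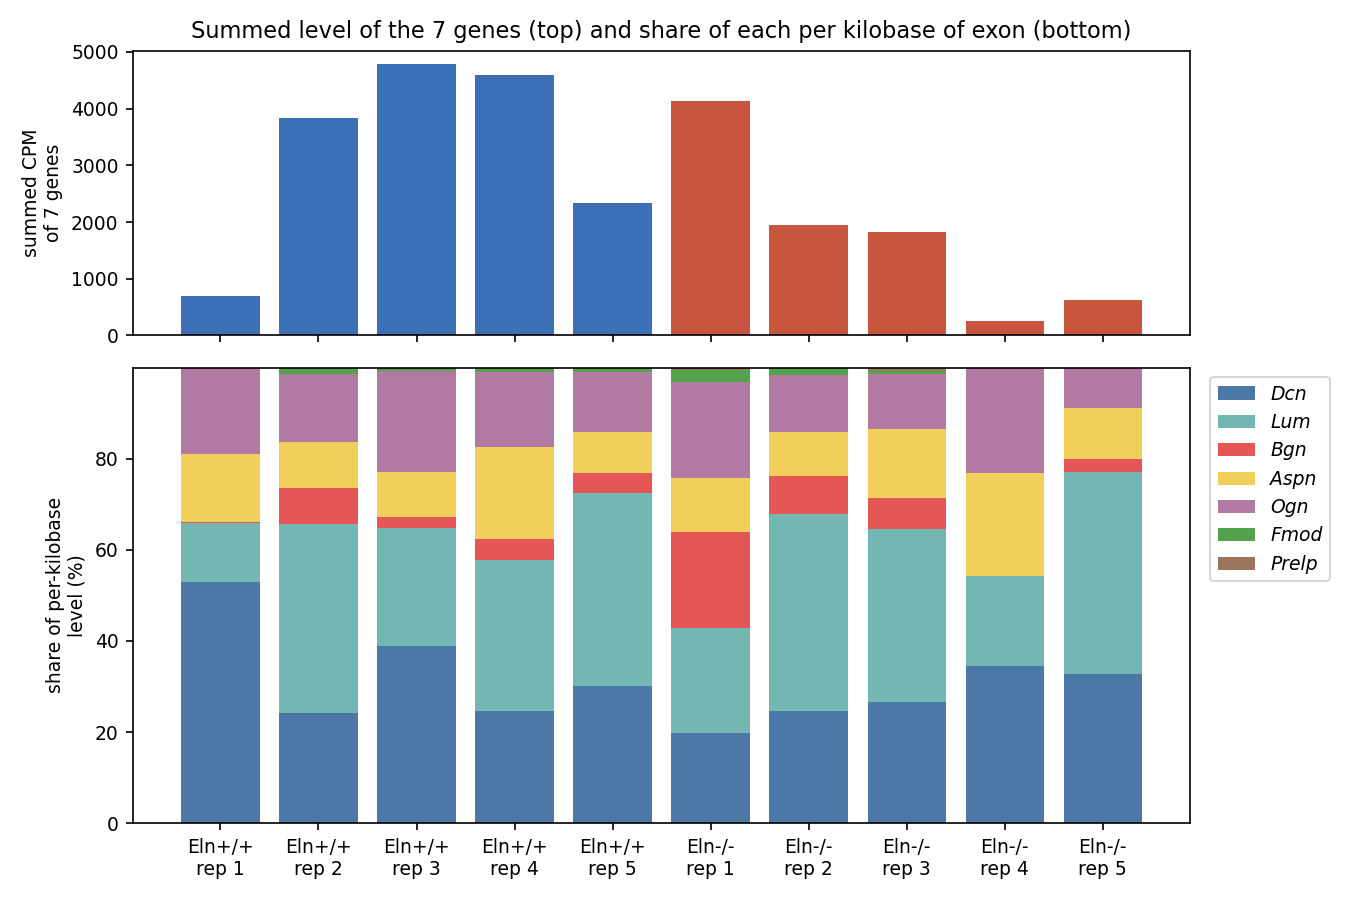
Summed CPM of the 7 SLRP genes (top, y axis from 0) and the share of each gene in their per-kilobase total (bottom, y axis in percent) for each library (x axis; blue Eln+/+, red Eln-/-). The sum was 249 to 687 CPM in the 3 sparse libraries, against 1821 to 4782 CPM elsewhere, and the share of Bgn reached 21.1% in Eln-/- replicate 1. Shares use the union of all annotated exons and depend on that length.

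The SLRPs differed in how low they lay in the 3 libraries that stood apart. The mean log2 CPM of Dcn there minus that of the other 7 was -2.22, and the differences for Aspn, Ogn and Lum were -2.37, -2.79 and -3.40. That of Bgn was -6.62. The median over all 15718 genes was -1.32, and the percentiles of the first 4 genes lay between 24.7 and 38.2, against 2.70 for Bgn. Fmod and Prelp had 0 to 1 counts in these 3 libraries, so that a log2 difference would be set by the prior count, and were at 11.7 to 90.3 CPM and 2.56 to 23.1 CPM in the other 7. Depth and genes detected move with these values. Their part in the genotype differences was not tested, and these 3 libraries are 1 of 5 Eln+/+ and 2 of 5 Eln-/- libraries.

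Correlations between the SLRPs depended on the libraries used. Over all 10 libraries the 21 pairs had a Pearson r of log2 CPM of 0.81 to 0.96, with all 7 genes lowest in the 3 libraries that stood apart. Over the 7 other libraries r was 0.01 to 0.97. These values are descriptions, since the points share genotype and depth. The highest value over the 7 joined Bgn and Fmod (Pearson r = 0.97, Spearman rho = 0.96), with r = 0.88 without the 2 libraries farthest from the median of Bgn. Dcn and Ogn were at r = 0.89 (rho = 0.86), Aspn and Ogn, neighbours on chromosome 13, at 0.79 (0.75), and Dcn and Lum, neighbours on chromosome 10, at 0.70 (0.79). Prelp and Fmod, neighbours on chromosome 1, were at 0.35 (0.57). The class I relatives Dcn and Bgn were at r = 0.01 (rho = 0.11), and at 0.54 without the 2 libraries farthest from the median of Dcn. Over all 10 libraries Dcn and Bgn were at r = 0.83, Bgn and Fmod at 0.91 and Fmod and Prelp at 0.96.

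**Figure D4:**
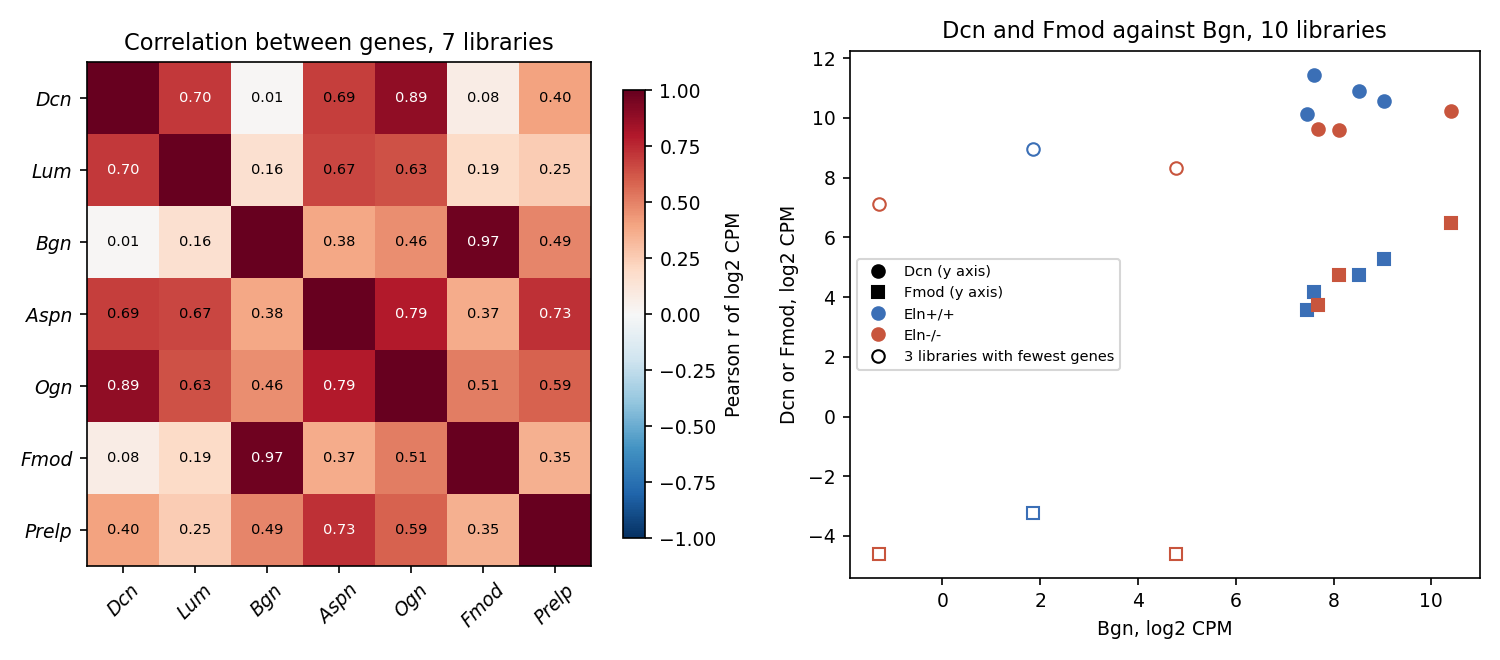
Left, Pearson correlation of log2 CPM between the 7 genes over the 7 libraries with more genes detected (color scale from -1 to 1). Right, log2 CPM of Dcn (circles) and Fmod (squares) against that of Bgn in all 10 libraries, colored by genotype, with the 3 other libraries open; over the 7 filled libraries r with Bgn was 0.97 for Fmod and 0.01 for Dcn, and over all 10 libraries it was 0.91 and 0.83, with the 3 open points lowest on both axes.

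The genes most like each SLRP over the 7 libraries were sought among genes whose average log2 CPM was 5 or more. For Dcn they were Mdk, the growth factor midkine (r = 0.99), Ppil2 (0.98) and Gsdme (0.97). For Bgn they were Gm12183 (0.99), a pseudogene near-identical to Ddx5 whose reads cannot be assigned with certainty, the protease Adamts1 (0.98) and Gxylt2 (0.98). Fmod was most like Mmp14, a membrane matrix metalloprotease (0.996), the collagen VI chain Col6a3 (0.99) and the integrin subunit Itgb1 (0.98). Fmod, Mmp14 and Col6a3 were all highest in Eln-/- replicate 1, at 90.3, 290 and 183 CPM. Aspn was most like Dpt, a dermatopontin transcript used here as a fibroblast marker (0.98), Mxra8 (0.90) and Ntrk2 (0.90). Ogn was most like Sfr1 (0.99), Lxn (0.99) and Rcn3 (0.96), Lum like Abcd3 (0.94), Kpna3 (0.94) and Plin3 (0.93), and Prelp like Clk3 (0.97), Riok3 (0.92) and Mcl1 (0.76). Over all 10 libraries r was 0.06 for Aspn and Dpt, 0.10 for Bgn and Gxylt2, 0.15 for Prelp and Mcl1, 0.38 for Bgn and Adamts1 and 0.59 for Fmod and Col6a3, and 0.64 to 1.00 for the other 16 of the 21 pairs named. Values above 0.9 over the 7 libraries were reached by 183 of 4287 genes with Fmod and 2 of 4287 with Prelp, and by 128 of 4286 with Bgn, 42 with Ogn, 32 with Dcn, 5 with Lum and 2 with Aspn.

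The other SLRP genes were scarce. Of 12 listed relatives 7 passed the filter, 0 were called in either direction, and 6 of the 7 had fold changes below 0 (median -0.91 over 10 libraries, -0.93 over 7). Epyc, which encodes epiphycan of cartilage, averaged 7.61 ± 5.99 CPM in the 5 Eln+/+ libraries against 3.09 ± 2.09 CPM in the 5 Eln-/- libraries (SD, n = 5 each). Ecm2, beside Aspn, was at 11.2 ± 8.46 and 5.36 ± 5.23 CPM, and Tsku, a secreted signalling modulator, at 7.27 ± 2.29 and 3.86 ± 1.88 CPM. Omd, which encodes osteomodulin, was at 5.57 ± 6.64 and 3.75 ± 2.36 CPM and the corneal gene Kera at 3.45 ± 4.47 and 1.30 ± 1.40 CPM. Optc was at 1.42 ± 0.739 and 0.922 ± 1.14 CPM and Chadl at 1.29 ± 1.13 and 1.63 ± 1.30 CPM, the latter with exons that overlap L3mbtl2. Exons of Epyc overlap Gm10754. Podn, Chad, Nyx, Podnl1 and Nepn did not pass the filter, with at most 4.65, 1.598, 1.97, 1.09 and 3.05 CPM in any library.

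Among 12 collagen chains that SLRPs bind, 2 had fold changes below 0 and 10 above 0 (median 0.22 against 0.02 over all genes) and 0 were called. In the 7 libraries, which include Eln-/- replicate 1, 0 of the 12 were below 0 and 0 were called. The median there was 0.76, against 0.04 over all genes. Summed, these chains were at 494 to 9394 CPM in Eln+/+ and at 19109 CPM in Eln-/- replicate 1, whereas Eln-/- replicates 2 to 5 held 442 to 3594 CPM. Col12a1, a fibril-associated chain, averaged 33.6 ± 10.5 CPM in the 5 Eln+/+ libraries against 49.7 ± 63.8 CPM in the 5 Eln-/- libraries, and Col5a1, a chain that starts fibrils, averaged 24.7 ± 17.1 and 42.0 ± 69.1 CPM. The fibril chain Col11a1 was at 13.0 ± 8.74 and 19.4 ± 29.1 CPM, and Col6a3 at 38.3 ± 25.05 and 52.5 ± 73.3 CPM. All 4 were highest in Eln-/- replicate 1. Without that library the Eln-/- means were 21.2 CPM for Col12a1, 11.3 CPM for Col5a1, 6.41 CPM for Col11a1 and 19.9 CPM for Col6a3, each below its Eln+/+ mean.

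Enzymes that build the sugar chains were listed by chain type. For chondroitin and dermatan sulfate 19 of 22 genes were tested, 9 below 0 and 10 above 0 (median 0.09), with 0 called. The median was 0.35 in the 7 libraries. Xylt1, which starts the chain on the core protein, averaged 1.58 ± 1.54 CPM in the 5 Eln+/+ libraries against 6.64 ± 8.35 CPM in the 5 Eln-/- libraries, and Dsel, an epimerase relative that makes dermatan sulfate, averaged 52.2 ± 23.9 and 41.0 ± 16.2 CPM. Xylt1 was at 20.99 CPM in Eln-/- replicate 4, one of the libraries that stood apart, and without it the Eln-/- mean was 3.05 CPM. B3gat3, which completes the linker, was at 15.1 ± 5.50 and 19.9 ± 8.23 CPM, and the sulfotransferase Chst7 at 0.487 ± 0.694 and 1.34 ± 1.55 CPM. For keratan sulfate 10 of 12 were tested, 3 below 0 and 7 above 0 (median 0.21, and 0.27 in the 7 libraries), with 0 called. The sialyltransferase St3gal2 was at 4.22 ± 2.41 and 12.6 ± 5.91 CPM (log2 fold change 1.57, SE 0.86, edgeR adjusted p = 1.00), B4galt4 at 20.4 ± 13.8 and 11.3 ± 5.28 CPM, St3gal3 at 1.25 ± 1.46 and 2.84 ± 2.65 CPM, and B4galt1 at 109 ± 42.2 and 90.2 ± 40.4 CPM.

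Among 21 genes for proteases, growth factors and receptors that act on or bind SLRPs, 17 were tested, 7 below 0 and 10 above 0 (median 0.29), with 0 called. The median was 0.65 in the 7 libraries, which include Eln-/- replicate 1. Bmp1, the protease that removes the propeptide of biglycan, averaged 10.1 ± 9.77 CPM in the 5 Eln+/+ libraries against 21.4 ± 31.4 CPM in the 5 Eln-/- libraries. Mmp14 was at 31.5 ± 34.3 and 69.6 ± 124 CPM, the endocytic receptor Lrp1 at 9.10 ± 8.70 and 24.3 ± 33.0 CPM, and Tlr4, a receptor for soluble biglycan, at 5.93 ± 5.53 and 2.98 ± 4.17 CPM. Other proteoglycans had 4 of 16 tested genes below 0 (median 0.36, and 0.67 in the 7 libraries) and 0 called. Of these Hspg2 (perlecan) was at 4.65 ± 5.05 and 14.0 ± 28.8 CPM, Cspg4 at 9.22 ± 9.83 and 19.1 ± 27.4 CPM, Acan (aggrecan) at 1.96 ± 3.62 and 7.14 ± 12.4 CPM and Srgn (serglycin) at 2.35 ± 1.95 and 0.895 ± 1.42 CPM. Eln-/- replicate 1 held the highest value of several of these genes, 65.5 CPM for Hspg2, 67.2 CPM for Cspg4 and 289.7 CPM for Mmp14. Without that library the Eln-/- means were 1.09 CPM for Hspg2, 7.10 CPM for Cspg4, 14.6 CPM for Mmp14, 7.63 CPM for Bmp1 and 1.73 CPM for Acan, each below its Eln+/+ mean, and 9.69 CPM for Lrp1.

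**Figure D5:**
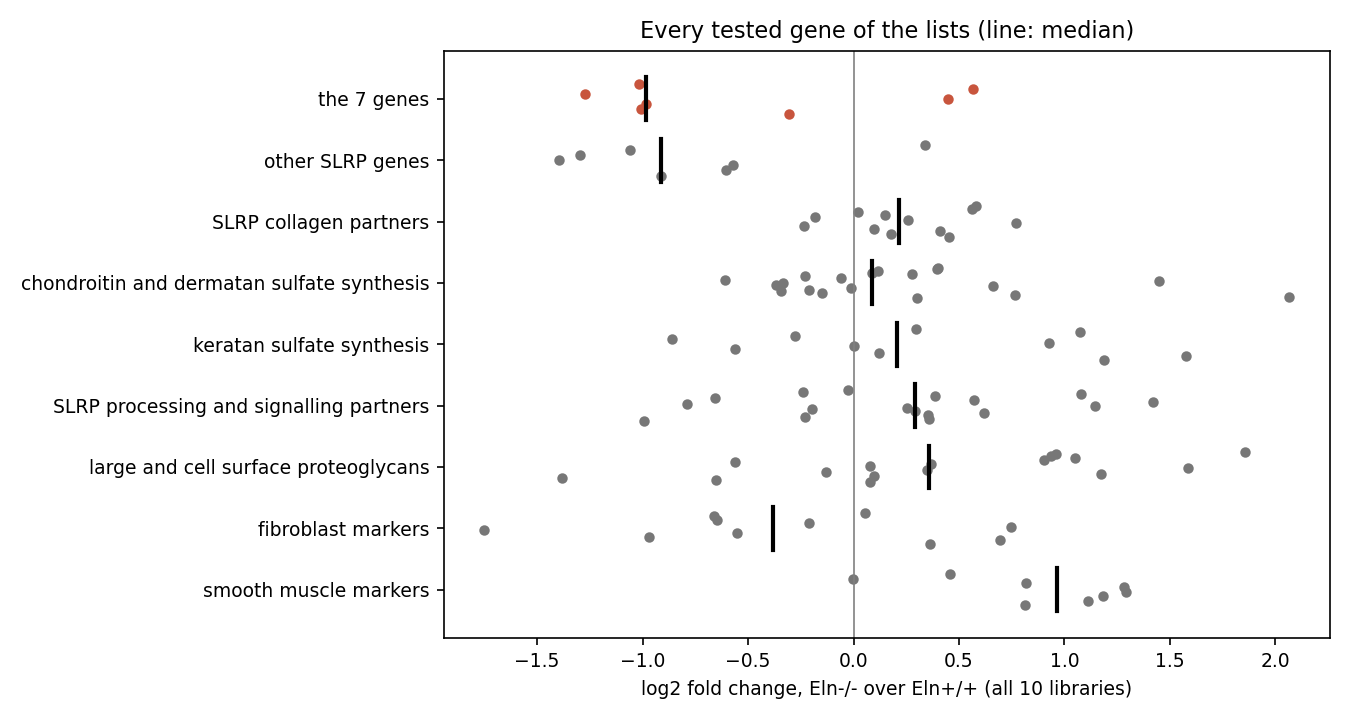
Log2 fold change in all 10 libraries, Eln-/- over Eln+/+, of every tested gene (points) in the 7-gene set and 8 lists (rows), with the median of each as a line. The medians of the 7 genes and of the other SLRP genes were -0.98 and -0.91, that of the collagen partners was 0.22, and no gene shown passed the test.

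SLRPs are also typical of fibroblasts, so fibroblast markers were set beside them. All 10 listed markers were tested, 6 were below 0 and 0 were called (median -0.38, and -0.14 in the 7 libraries). Their summed level was 1366 to 2999 CPM in Eln+/+ and 1249 to 2146 CPM in Eln-/-. Pdgfra was at 5.42, 175, 81.1, 122 and 48.6 CPM in Eln+/+ replicates 1 to 5 and at 95.5, 79.3, 27.8, 13.1 and 4.33 CPM in Eln-/- replicates 1 to 5, low in the same 3 libraries as the SLRPs. Mfap5 ran the other way, with 2233 CPM in Eln+/+ replicate 1 and 1312 CPM in Eln-/- replicate 4 against 259 to 956 CPM in the other 8. The rest of the list was split. Cd34 (4.23 and 5.30 CPM) and Gsn (45.5 and 61.0 CPM) were lowest in Eln+/+ replicate 1 and Eln-/- replicate 4. Dpt and Ly6a were highest in Eln+/+ replicate 1, at 630 and 35.2 CPM. Tcf21, Clec3b and Lsp1 were mixed among the 3 libraries. Pi16 was at 0 in Eln-/- replicates 4 and 5. The part of fibroblast-like cells in the SLRP values was not tested. Smooth muscle markers had 7 of 8 above 0 (median 0.96), a summed level of 782 to 2053 CPM in Eln+/+ and 1128 to 3152 CPM in Eln-/-, and 0 called. In the 7 libraries, which include Eln-/- replicate 1, 0 of the 8 were below 0 (median 1.27) and 0 were called. The Eln-/- mean was below the Eln+/+ mean for 1 of the 8, and for 5 of the 8 without Eln-/- replicate 1. In that library Myh11 was at 119 CPM, Smtn at 187 CPM, Lmod1 at 97.8 CPM, Myocd at 93.1 CPM and Cnn1 at 352 CPM, each its highest value. The remaining markers, Acta2, Tagln and Actg2, were at 1690, 461 and 152 CPM there. Their highest values, 1742, 1452 and 221 CPM, were in other Eln-/- libraries.

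Cartilage and tendon are rich in several SLRPs, and the markers of these tissues varied. Matn1 had no count, Comp at most 0.0821 CPM and Col2a1 at most 2.44 CPM in any library, and these 3 were named after their values were seen. Acan was at 28.8 CPM in Eln-/- replicate 1, 8.35 CPM in Eln+/+ replicate 2 and 6.33 CPM in Eln-/- replicate 3, with 0 to 1.43 CPM elsewhere, and Matn4 reached 6.93 CPM in Eln+/+ replicate 2. Sox9 ranged from 4.36 to 123 CPM in Eln+/+ and from 1.88 to 53.7 CPM in Eln-/-, and Tnmd from 5.14 to 22.1 and from 0 to 31.7 CPM. The 9 markers of this list summed to 13.6 to 146 CPM in Eln+/+ and 28.2 to 114 CPM in Eln-/-. Mesothelial markers summed to 20.96 to 160 and 8.07 to 107 CPM, and cardiomyocyte markers to 3.15 to 598 and 12.4 to 422 CPM. Endothelial markers summed to 0.860 to 44.1 CPM and 0.490 to 23.9 CPM, blood and immune markers to at most 14.9 CPM and glial markers to at most 6.53 CPM. Erythroid transcripts summed to 18877 CPM in Eln+/+ replicate 1 and 5150 CPM in Eln-/- replicate 4, against 22.3 to 1357 CPM in the other 8 libraries. They were thus highest in a pair of the libraries that stood apart, where all 7 SLRPs were low. Eln-/- replicate 5, which also stood apart, was at 619 CPM. The part of erythroid transcripts was not tested.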

How the data were processed

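The submitters' processing notes name the aligner STAR, DESeq2 and the mm10 build. Their versions, the counting program, its annotation and the strand setting were not stated. The authors deposited 1 table of estimated counts per gene and library, not scaled for library size, of which 23.5% to 48.8% per library were not whole (tolerance 1e-06), and they were rounded before testing. Gene spans matched GENCODE mouse release 21 for 96% of genes, which gave exon lengths and overlaps. Genes were kept with edgeR's filterByExpr, scaled with TMM factors and tested with edgeR's quasi-likelihood test (two-sided, genotype only, Benjamini-Hochberg adjustment over all genes, threshold 0.05). SE is the absolute log2 fold change divided by the square root of F. CPM use TMM-scaled library sizes, and log2 CPM a prior count of 2. The 7 libraries are those with at least 18000 genes detected. The procedure was tested on simulated data that varied less between libraries than these data. The simulated fold changes were larger than those of the SLRPs in the reported fit, so that test does not show the power here. Software was edgeR 4.0.16, DESeq2 1.42.0 and limma 3.58.1 under R 4.3.3.

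The 7 genes, the gene lists and the alternatives were chosen with earlier results of these data known. Named were Eln, the 7 genes, the other SLRP genes, up to 4 genes by p of each pathway list and the 3 genes most like each SLRP; for marker lists the genes that define the type were named after their values were seen. Alternatives were other scalings, filters and tools, a block on replicate number, unrounded counts and libraries left out.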

Additional observations from a re-analysis of the deposited data

Results flagged for a closer look

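Of 14 groups of 5 libraries, 1 per gene and genotype, 2 held a library far from the others by Dixon's criterion, applied to CPM. The criterion flags about 1 in 20 groups of independent, normally distributed values. CPM were skewed and the groups shared libraries, so that rate need not hold here. Bgn was at 1357 CPM in Eln-/- replicate 1, with the next Eln-/- library at 276 CPM. Ogn was at 570.1 CPM in the same library, with the next at 173 CPM. Collagen partners of the SLRPs were also highest there, at 19109 CPM in sum, and 22951 genes were detected, the most of any library. The part of these values in the Bgn and Ogn levels was not tested.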

How the results depend on the processing

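The fold changes of Dcn, Lum, Aspn and Ogn stayed below 0 in all 23 alternatives, from -1.65 to -0.96 for Dcn, -1.28 to -0.68 for Lum, -1.54 to -0.44 for Aspn and -1.95 to -0.63 for Ogn, and no SLRP passed in any. The smallest adjusted p was 0.454, for Dcn with limma-voom and sample quality weights. The unadjusted limma-voom p-values in that setting were 0.0041 for Dcn, 0.0120 for Ogn and 0.0183 for Aspn, and above 0.05 for the other SLRPs. There 1023 genes (6.51%) had an unadjusted p under 0.05. The number of SLRPs below 0 was 4 to 7. Over all genes, DESeq2 called 6 genes on the filtered table and 28 on all genes, limma-voom 2, limma-voom with sample quality weights 7 and edgeR without both Eln+/+ replicate 2 and Eln-/- replicate 1, 1. With single libraries left out edgeR called 0 to 1. Leaving out Eln-/- replicate 1 moved the median of all genes from 0.02 to -0.13, so the SLRP values without it sit on a lower base. Unadjusted p-values under 0.05 numbered 81 in the reported fit and 2134 without the filter.

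The sign turned for 3 genes. Bgn was at -0.42 with limma-voom, -0.31 with quality weights, -1.15 with the replicate block and -0.54 without Eln+/+ replicate 2 and Eln-/- replicate 1. Fmod was at -2.38, -0.20, -2.0 and -0.50 in the same settings. Prelp turned to 0.13 in the 7 libraries. With single libraries left out Bgn ranged from -0.99 to 1.02, Fmod from -0.94 to 0.88 (both lowest without Eln-/- replicate 1) and Prelp from -1.32 to 0.11, above 0 without Eln+/+ replicate 4, Eln-/- replicate 4 or Eln-/- replicate 5. The cause was not tested.

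Same-numbered libraries did not pair: their deviations from the group means correlated at -0.56 to 0.51, and 2 of 10 libraries correlated best with their own number. With the replicate block 0 genes were called, and no SLRP call changed. Per-length ranks of 5 genes moved with the longest transcript or longest coding transcript, where over all 10 libraries Dcn ranked 1, Lum 2, Bgn 3, Ogn 4 and Aspn 5. Without Eln-/- replicate 1 Bgn ranked 5 with every length. With the longest transcript Lum ranked 1, Bgn 2 and Dcn 3 in Eln-/- alone, and Bgn 5 in Eln+/+ alone.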
